A study of Mus musculus with 8 samples.

Results

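The PDGF signalling and pericyte genes described here are 10 mouse genes, taken by symbol from the platform annotation: the ligands Pdgfa, Pdgfc and Pdgfd, the receptors Pdgfra and Pdgfrb, and the mural cell genes Cspg4, Rgs5, Kcnj8, Abcc9 and Trpc6. All probe sets annotated to one of these symbols alone were used, 23 probe sets in all, and the 10 genes stand among 18193 genes with a symbol of their own on the array. The intensities were measured in total lung RNA of 8 pups of the FVB/N strain, 1 Affymetrix array per pup. Controls D02, D40, D50 and D58 were set against cases D04, D34, D48 and D52, 4 pups a group. The genotype label is the same in all 8 pups, an inducible FGF18 transgene aimed at the lung (SP-C-rtTA and (teto)7-FGF18), and the design text says that single and double transgenic pups came in pairs from 4 litters and were selected on induction of the transgene. The transgene is thus driven from distal airway epithelium, where the promoter of surfactant protein C is on, through an activator that depends on doxycycline. No label gives the age of the pups, the dose or timing of doxycycline or the litter of a pup.

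Platelet-derived growth factors are secreted dimers that act through a pair of receptor tyrosine kinases, PDGF receptor alpha on fibroblasts and their precursors and PDGF receptor beta on pericytes and smooth muscle. In the developing mouse lung, PDGF-A from the epithelium acts on Pdgfra-positive mesenchyme that gives rise to the myofibroblasts of the alveolar septa, and PDGF-B from endothelium draws pericytes to the capillaries. Pericytes are the mural cells of capillaries, and in mouse tissues they are known by Pdgfrb, the proteoglycan Cspg4 (NG2), the G protein regulator Rgs5 and the ATP-sensitive potassium channel made by Kcnj8 and Abcc9. The comparison asks how these genes differ in lungs exposed to FGF18.

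Kcnj8 and Abcc9 lie next to each other in the mouse genome and, with Pdgfra, were the members that read highest in 1 case pup, D34, so their promoters are shown. Each sequence runs from 250 bases before the transcription start to 50 after it, on the strand of the gene, from RefSeq, build GRCm38.p6, and the capitals mark the transcribed bases.
Pdgfra, chr5:75152001-75152300, plus strand: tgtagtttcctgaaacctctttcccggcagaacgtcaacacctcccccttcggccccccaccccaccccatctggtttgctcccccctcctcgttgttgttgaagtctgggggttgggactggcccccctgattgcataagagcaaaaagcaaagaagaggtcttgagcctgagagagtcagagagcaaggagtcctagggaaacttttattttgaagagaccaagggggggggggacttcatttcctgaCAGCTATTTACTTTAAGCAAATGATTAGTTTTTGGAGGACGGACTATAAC
Kcnj8, chr6:142571565-142571864, minus strand: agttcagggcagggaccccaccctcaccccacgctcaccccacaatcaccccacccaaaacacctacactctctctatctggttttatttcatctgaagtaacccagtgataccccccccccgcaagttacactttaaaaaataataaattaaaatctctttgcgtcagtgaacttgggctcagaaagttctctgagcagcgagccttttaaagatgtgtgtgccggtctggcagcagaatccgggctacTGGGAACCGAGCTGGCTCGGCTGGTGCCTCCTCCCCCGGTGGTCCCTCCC
Abcc9, chr6:142702225-142702524, minus strand: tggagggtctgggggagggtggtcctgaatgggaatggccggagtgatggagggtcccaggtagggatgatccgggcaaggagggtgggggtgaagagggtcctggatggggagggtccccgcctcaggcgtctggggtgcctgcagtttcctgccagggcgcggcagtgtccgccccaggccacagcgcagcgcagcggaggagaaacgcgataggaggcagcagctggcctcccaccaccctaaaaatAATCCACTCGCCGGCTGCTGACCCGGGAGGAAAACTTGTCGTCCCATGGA

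Promoters of 9 of the 10 genes were searched on both strands for 4 motifs, and that of Pdgfrb was left out of the search. The motifs were TGANTCA, bound by AP-1 factors, CCGGAA, the core of many ETS factor sites, the CArG box of serum response factor, and TATAAA. The CArG box and TATAAA can overlap. None of the 4 was found in the promoters of Pdgfra, Kcnj8 or Abcc9. The CArG box, present in 1.63% of all 32851 promoters in the table, was found in those of Pdgfc and Trpc6, and TATAAA, present in 13.6%, in that of Pdgfd. TGANTCA and CCGGAA, in 7.81% and 14.9% of all promoters, were found in none of the 9 genes. The stretches of 30 bases around both CArG boxes are given with the box in capitals, which begins 17 bases before the start in Pdgfc and 122 bases before it in Trpc6.
Pdgfc, chr3:81036389-81036418, plus strand: cccgcagactCCTTATTTGGggttaggggc
Trpc6, chr9:8544010-8544039, plus strand: cctttcgatcCCTTTAAAGGtggggatcgt

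A pair of case libraries stood apart. Fgf18 itself read log2 7.05 to 7.76 in controls, 10.82 in case D04, 12.09 in D34 and 9.82 in D48, but 7.66 in the library labelled Case D52, which is within the control range. Case D34, the pup with the highest Fgf18, had 79 of 12856 genes (0.614%) at least 2-fold above the control mean and 195 (1.52%) at least 2-fold below it, while the other cases had 8 to 23 above and 6 to 13 below. Array medians were alike, between log2 7.02 and 7.12. For RNA quality, the 3′ probe set of Actb exceeded the 5′ one by 0.38 log2 in D34, between the extremes of the other 7 pups (0.32 and 0.43), and for Gapdh this was -0.04, the lowest of the 8, against -0.02 to 0.18 in the others. Xist and the Y-linked gene Eif2s3y read as female in control D02 and cases D04 and D34 and as male in the other 5 pups. Group differences of the 10 genes are therefore given with all pups, without the library labelled Case D52 and without case D34.

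With all pups, 7 of the 10 genes lay lower in cases and 3 (Pdgfra, Kcnj8 and Abcc9) higher, and none passed the test. The test was limma on log2 intensity, with the brightest probe set of each gene, and p-values adjusted by Benjamini-Hochberg over 12856 genes. In this comparison 1 gene of 12856 passed the threshold of 0.05 (0.00778%), so a count of 0 among 10 genes is near the background. Over every probe set with no filter, 0 of the 23 passed, where 0.00444% of 45037 did. An unadjusted p under 0.05 was found for 6 of the 23, where 7.54% of all had one. These belong to Pdgfa, Pdgfd, Rgs5 and Trpc6 alone, and probe sets of the same gene are not separate observations. At an unadjusted p under 0.05 there were 5 members lower and 0 higher, against 4.22% of all genes lower and 2.08% higher. Leaving out the library labelled Case D52, again 0 of 10 passed, against 0.0467% of all genes, with 5 lower and 1 higher at an unadjusted p under 0.05, against 8.13% and 4.57% of all genes. Without case D34 0 of 10 passed, against 0.00778% of all genes, with 2 lower and 0 higher, against 3.14% and 1.43%. The median difference over the 10 genes was -0.20 log2, beside -0.01 over all genes fitted. RNA of whole lung was measured, so fewer cells of a type and less RNA per cell cannot be told apart.

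**Figure D1:**
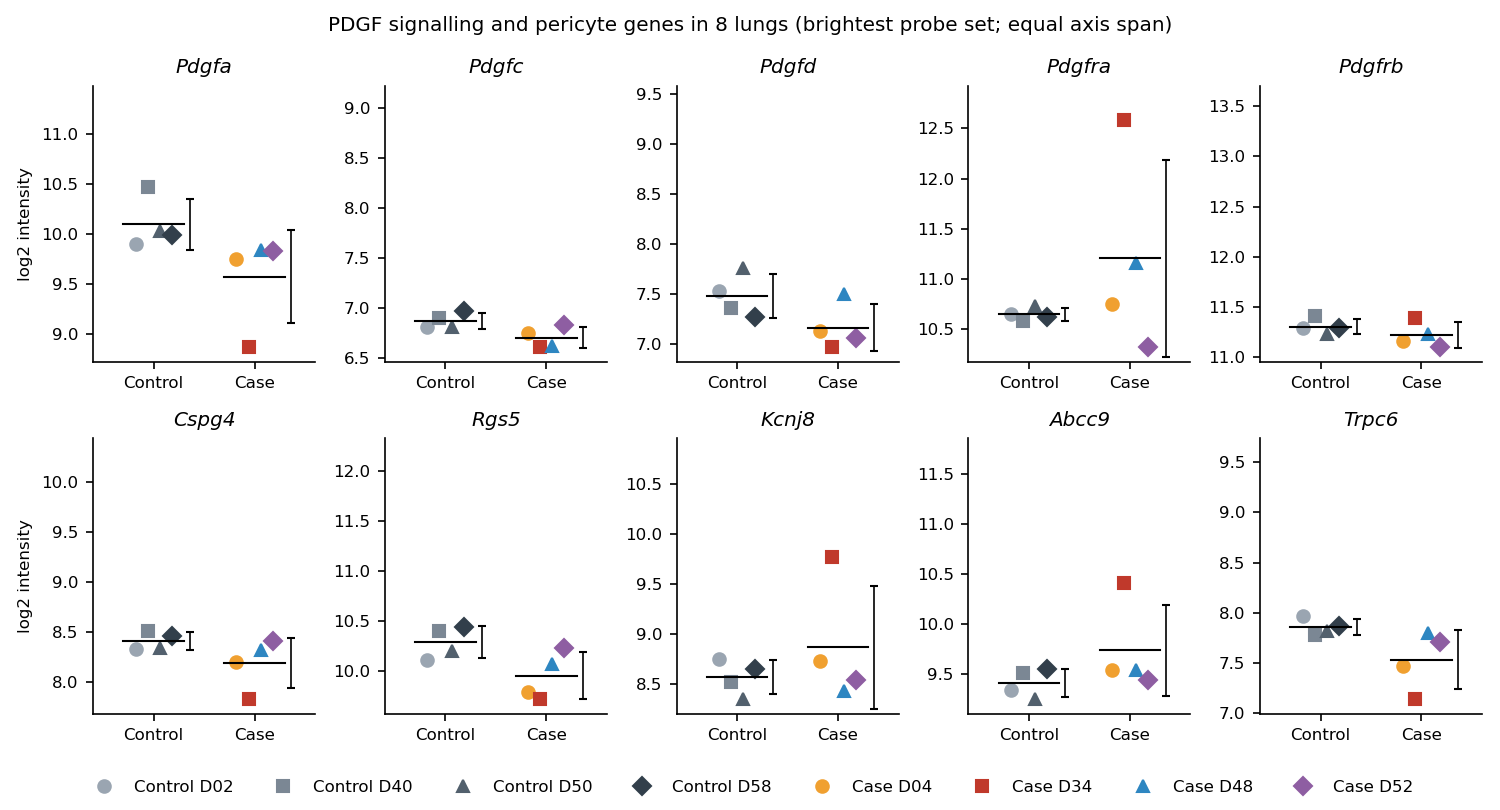
Log2 intensity of the 10 genes in each pup, at the brightest probe set of each gene, with controls at the left and cases at the right of each panel. Horizontal lines are group means and the bars beside them 1 SD (n = 4), and all panels span the same log2 range from different starts. Case D34 is the highest pup for Pdgfra, Kcnj8 and Abcc9 and the lowest for Pdgfa, Pdgfd, Cspg4, Rgs5 and Trpc6.

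Among the ligands, Pdgfa, which the alveolar epithelium makes, was lower in every case than in every control at its brightest probe set, 1418711_at. Controls D02, D40, D50 and D58 read log2 9.90, 10.47, 10.03 and 9.99. Cases D04, D34, D48 and D52 read 9.76, 8.88, 9.84 and 9.83. Most of the distance comes from D34, which was 2.33-fold below the control mean, and the other cases lay just under the lowest control. The difference was -0.52 log2 (SE 0.21, 95% interval -1.0 to -0.04, n = 4 and 4, limma adjusted p = 0.736). It was -0.61 (limma adjusted p = 0.329) once the library labelled Case D52 was left out and -0.29 without case D34 (limma adjusted p = 0.920). At the brightest probe sets, Pdgfa was the 1 member whose groups did not overlap in this direction, beside 2.57% of all genes. At its second probe set, 1449187_at, the difference was -0.47 (-0.23 without D34) and the groups overlapped, because case D48 (9.84) read above control D02 (9.81).

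Pdgfc and Pdgfd encode ligands that are secreted in a latent form and cut by proteases before they bind their receptors, PDGF-C chiefly the alpha and PDGF-D the beta receptor. Pdgfc at 1449351_s_at read 6.81, 6.90, 6.81 and 6.97 in controls and 6.75, 6.62, 6.62 and 6.83 in D04, D34, D48 and D52. The case values lay a little lower and overlapped the controls through D52, with a difference of -0.17 log2 (SE 0.07, limma adjusted p = 0.736). It was -0.21 on omitting D52 and -0.14 on omitting D34 (limma adjusted p = 0.294 and 0.920). Its other probe set, 1419123_a_at, spread from 6.33 to 7.08 in controls and differed by -0.28. D34 was the lowest pup there, at 5.89, and without it the difference was -0.10. Both sit close to the limit below which probe sets were left out, log2 6.51.

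Pdgfd at 1456532_at read 7.53, 7.36, 7.77 and 7.27 in the 4 controls and 7.13, 6.98, 7.50 and 7.06 in cases D04, D34, D48 and D52. In all, 3 cases lay below all controls and D48 in their midst, and the difference was -0.31 log2 (SE 0.13, limma adjusted p = 0.736). It was -0.28 on omitting D52 and -0.25 on omitting D34 (limma adjusted p = 0.467 and 0.920). The probe set 1426319_at gave -0.25, with the same order of D34, D04 and D48. The third, 1446691_at, read 4.05 to 4.27 in all pups, below the limit for dim probe sets, and gave -0.04. It is the 1 probe set of the 23 that did not pass that limit.

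Pdgfb, the endothelial ligand that is not among the 10 genes, read 9.91, 10.45, 10.03 and 10.01 in controls and 9.85, 9.37, 10.07 and 10.05 in cases D04, D34, D48 and D52. Only D34 and D04 lay below the controls (difference -0.27 log2, limma adjusted p = 0.736). The difference was -0.34 on omitting D52 and -0.11 on omitting D34. D34 was thus the lowest of the 8 pups for Pdgfa, Pdgfb and Pdgfd, and level with D48 as the lowest for Pdgfc at its brighter probe set.

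Of the receptors, Pdgfra, the receptor of alveolar fibroblasts and myofibroblast precursors, showed the widest spread among cases of any member. At 1421917_at the controls read 10.65, 10.58, 10.73 and 10.62, a mean of 10.64 ± 0.07 (SD, n = 4). Case D34 read 12.58, 3.83 times the control mean, D48 read 11.15, D04 read 10.75 and the library labelled Case D52 read 10.32. In all, 3 cases were above every control, D04 by the smallest margin, and D52 was below every control, so the groups overlap. From highest to lowest, the case pups ran D34, D48, D04 and D52 for Pdgfra and D34, D04, D48 and D52 for Fgf18. The highest and the lowest pup were thus the same, and a link between these genes was not tested.

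The other Pdgfra probe sets gave the same picture of D34. At 1421916_at the controls read 8.73, 8.54, 8.76 and 8.49 and the cases D04, D34, D48 and D52 read 8.57, 11.03, 8.96 and 8.54, which puts D34 at 5.29 times the control mean. At 1438946_at the controls read 6.76, 6.70, 6.81 and 6.83 and the cases 6.87, 8.54, 7.18 and 6.44, with D34 at 3.39 times. Case D48 was above all controls at all 3 probe sets. At 1421916_at D04 and D52 lay within the control range, while at 1438946_at D04 lay just above it and D52 below it.

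Over the groups, Pdgfra differed by 0.56 log2 (SE 0.39, 95% interval -0.31 to 1.42, limma adjusted p = 0.743), with an SD among cases of 0.98. Leaving out the library labelled Case D52 gave 0.85 (SE 0.35, 95% interval 0.06 to 1.65, limma adjusted p = 0.366), higher in 3 of 3 cases. Without case D34 it was 0.10 (95% interval -0.26 to 0.45, limma adjusted p = 0.940). In D34, 13 of 12856 genes, Pdgfra included, lay as far or farther above their control mean.

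Pdgfrb, the receptor that pericytes use to answer endothelial PDGF-B, differed little between the groups. At 1436970_a_at controls read 11.29, 11.41, 11.23 and 11.28 and cases D04, D34, D48 and D52 read 11.15, 11.39, 11.23 and 11.10. D34 lay inside the control range, in contrast to its Pdgfra. The difference was -0.08 log2 with a 95% interval of -0.26 to 0.09 (limma adjusted p = 0.790), -0.04 when the library labelled Case D52 was omitted, and -0.14 without case D34. At 1417148_at, controls read 10.06 to 10.18 and cases 10.06, 10.06, 9.81 and 10.05, with D48 the lowest and a difference of -0.11. Case D04 and control D58 both read 10.0629 there, so the groups failed to overlap by less than this rounding. The share of all probe sets without overlap was not counted.

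**Figure D2:**
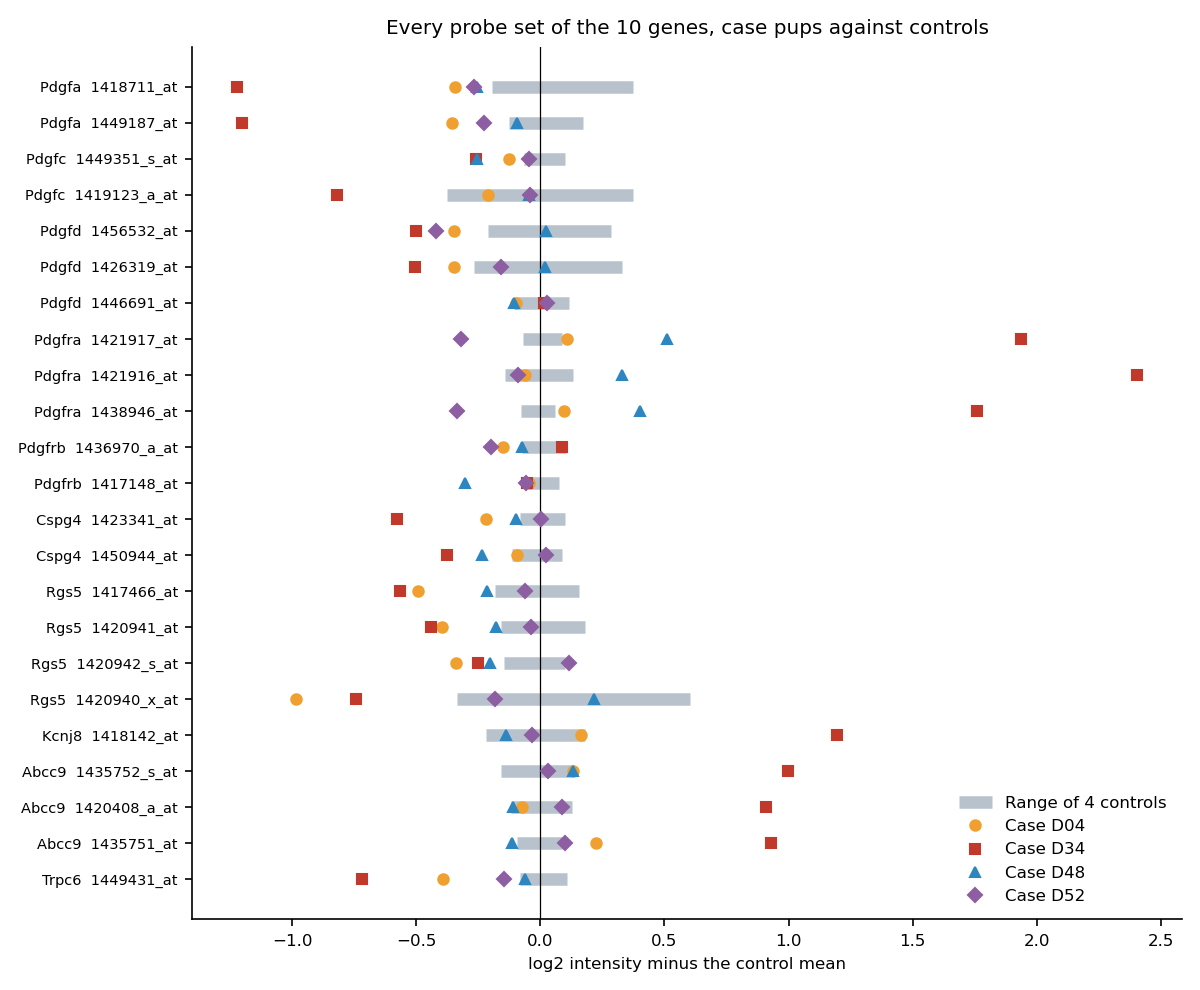
Every one of the 23 probe sets, with the log2 intensity of each case pup minus the mean of the 4 controls on the horizontal axis and the range of the controls as a grey bar. Case D34 lies 1.76 to 2.40 above the control mean at the 3 Pdgfra probe sets, 0.91 to 1.19 above it at the Kcnj8 and Abcc9 probe sets, and below it at both Pdgfa, both Cspg4, all 4 Rgs5 and the Trpc6 probe set.

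Of the mural cell genes beside Pdgfrb, Rgs5, Trpc6 and Cspg4 read low in D34 and Kcnj8 and Abcc9 high. Rgs5, which quenches G protein signals and is among the markers that pericytes are best known by, had a lower mean in cases at each of its 4 probe sets. At 1417466_at controls read 10.11, 10.40, 10.20 and 10.45 and cases D04, D34, D48 and D52 read 9.79, 9.72, 10.07 and 10.23. D04, D34 and D48 lay below every control and D52 within them. The difference was -0.33 log2 (SE 0.12, 95% interval -0.61 to -0.06, limma adjusted p = 0.736). Leaving out the library labelled Case D52 gave -0.42 (SE 0.11, limma adjusted p = 0.192, lower in 3 of 3 cases), and without case D34 it was -0.26 (limma adjusted p = 0.920). The remaining Rgs5 probe sets, 1420941_at, 1420942_s_at and 1420940_x_at, differed by -0.26, -0.17 and -0.42. Without case D34 these differences were -0.20, -0.14 and -0.32. At 1420942_s_at D52 (8.26) read above the highest control (8.24). At 1420940_x_at, whose suffix marks probes that can match other genes, D48 (7.60) read above the control mean (7.38).

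Trpc6, a cation channel of smooth muscle and other contractile cells, read 7.97, 7.78, 7.82 and 7.87 in controls and 7.47, 7.14, 7.80 and 7.71 in D04, D34, D48 and D52 at 1449431_at. D34, D04 and the library labelled Case D52 lay below every control, D34 the farthest and D52 the least far, and D48 lay within the controls. The difference was -0.33 log2 (SE 0.13, limma adjusted p = 0.736), -0.39 when the library labelled Case D52 was omitted, and -0.20 without case D34. Cspg4, the NG2 proteoglycan of the pericyte surface, read 8.33, 8.51, 8.34 and 8.46 in controls and 8.20, 7.83, 8.32 and 8.41 in cases at 1423341_at. D34 was again the lowest and D52 lay at the control mean. The difference was -0.22 (SE 0.12, limma adjusted p = 0.736), -0.30 when the library labelled Case D52 was omitted, and -0.10 without case D34, and the second probe set, 1450944_at, gave -0.17.

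Kcnj8 and Abcc9 went the other way in D34. Kcnj8 makes the pore of an ATP-sensitive potassium channel and Abcc9 the regulatory subunit that surrounds it. Kcnj8 at its 1 probe set, 1418142_at, read 8.76, 8.53, 8.36 and 8.66 in controls and 8.74, 9.77, 8.44 and 8.54 in D04, D34, D48 and D52. D34 was 2.29-fold above the control mean and the other cases lay inside the control range. Abcc9 at 1435752_s_at read 9.34, 9.51, 9.25 and 9.55 in controls and 9.54, 10.41, 9.54 and 9.44 in cases. D34 was 2.0-fold above the control mean there, 1.88-fold at 1420408_a_at and 1.91-fold at 1435751_at, and D04 and D48 were at most 0.22 log2 from the control mean at all 3.

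Over the groups, Kcnj8 differed by 0.30 log2 (SE 0.25, limma adjusted p = 0.785) and Abcc9 by 0.32 (SE 0.19, limma adjusted p = 0.736). On leaving out the library labelled Case D52 these were 0.41 and 0.42 (limma adjusted p = 0.545 and 0.423). Without case D34 Kcnj8 was -0.0034 (95% interval -0.24 to 0.24) and Abcc9 0.10 (95% interval -0.09 to 0.29), so without that pup both lay near 0. At a 2-fold limit, Pdgfra and Kcnj8 were the 2 members above it in D34, with Abcc9 just under it, and Pdgfa the 1 member below it, where the shares of all genes were 0.614% and 1.52%. No member reached 2-fold in D04, D48 or D52, where 0.0622%, 0.179% and 0.117% of all genes were that far above the control mean and 0.101%, 0.0856% and 0.0467% that far below it.

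**Figure D3:**
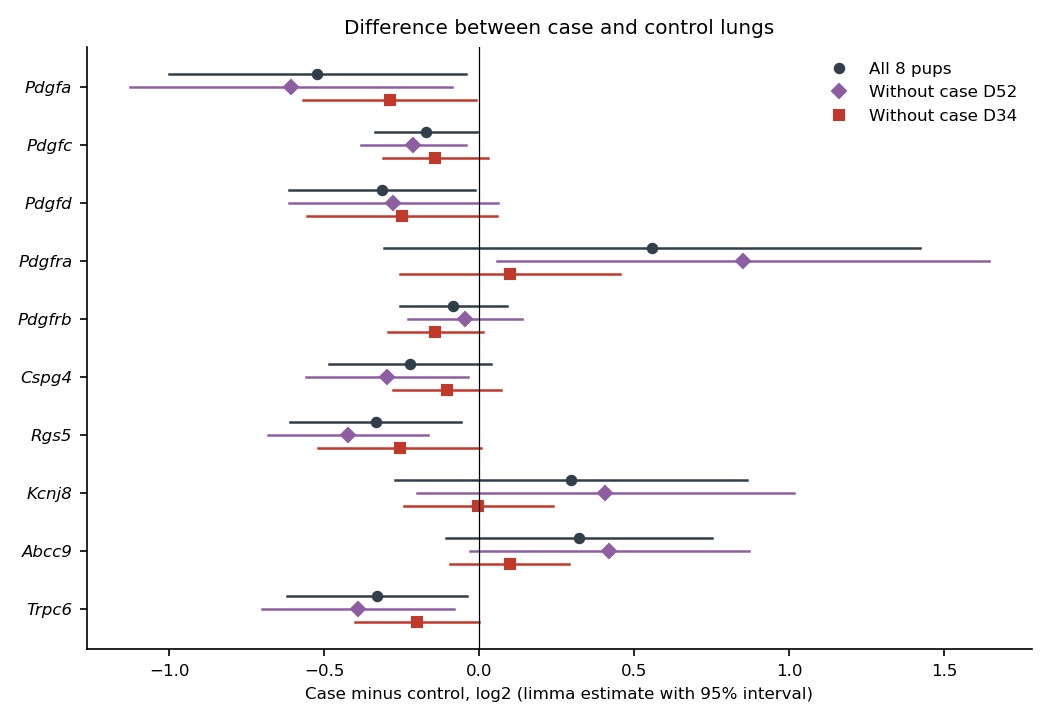
Case minus control log2 difference of each gene with its 95% interval from limma, for all 8 pups, without the library labelled Case D52 and without case D34. The estimates for Pdgfra, Kcnj8 and Abcc9 shrink to 0.10, -0.0034 and 0.10 when D34 is left out, while that of Rgs5 goes from -0.33 to -0.26.

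The genes on either side of Kcnj8 and Abcc9 did not share the D34 value. In the RefSeq gene table Ldhb, a lactate dehydrogenase, lies beside Kcnj8, and Cmas, an enzyme that activates sialic acid, beside Abcc9. In D34 Ldhb was -0.02 and Cmas 0.03 log2 from the control mean, beside 1.19 for Kcnj8 and 1.0 for Abcc9. Kit, the receptor gene beside Pdgfra, was -0.45 in D34, beside 1.94 for Pdgfra. Csf1r, the macrophage receptor beside Pdgfrb, was -0.30. Over the groups these neighbours differed by -0.08 (Ldhb), -0.03 (Cmas), -0.16 (Kit) and -0.18 (Csf1r), with limma adjusted p from 0.736 to 0.903.

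**Figure D4:**
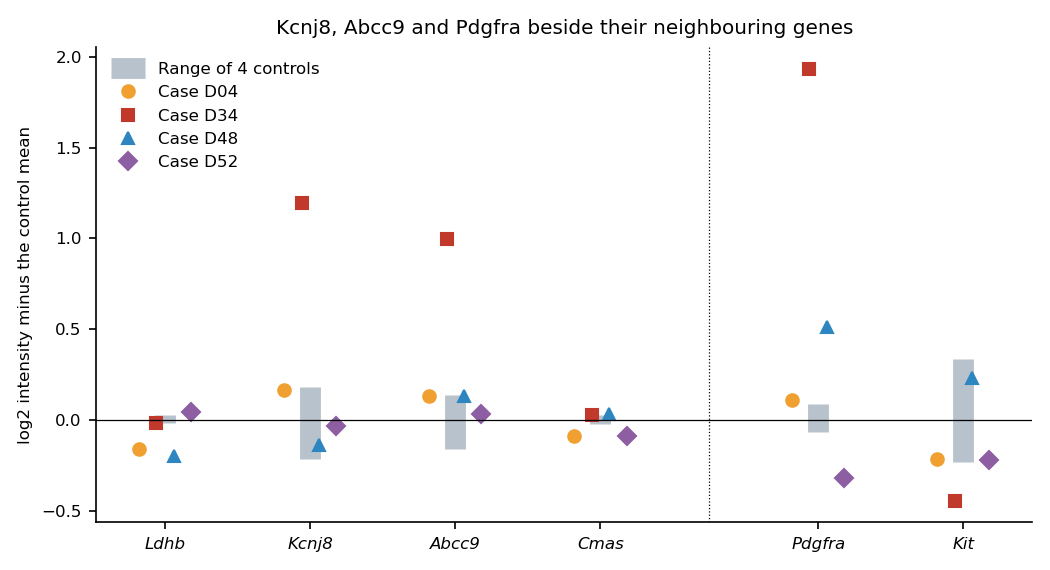
Log2 intensity minus the control mean for Kcnj8 and Abcc9 between their neighbours Ldhb and Cmas, and for Pdgfra beside its neighbour Kit, with the control range in grey and each case pup as a point. Case D34 stands at 1.19 and 1.0 for Kcnj8 and Abcc9 and at 1.94 for Pdgfra, and at -0.02, 0.03 and -0.45 for Ldhb, Cmas and Kit.

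The genes whose profile over the 8 arrays was nearest to a member's were found by the mean absolute difference of their centred log2 values. For Pdgfra these were 6330403K07Rik, the lectin gene Colec10 and the teneurin Tenm4, with mean differences of 0.09, 0.11 and 0.12 log2, where a flat profile would give 0.47. Like Pdgfra they were high in D34, by 1.85, 1.59 and 1.56 log2 over the control mean. For Kcnj8 they were Ankrd37, the TGF-beta co-receptor Tgfbr3 and the ligand Bmp2 (0.10, 0.12 and 0.12), and for Abcc9 the TGF-beta effector Smad3, Zadh2 and Gm13889 (0.08, 0.09 and 0.09). For these 6 genes D34 was 0.81 to 1.22 log2 above the control mean. Abcc9 was the nearest member to Kcnj8, and Kcnj8 to Abcc9, with 0.13 log2 between them.

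Members that read low in D34 had other neighbours in profile. Nearest to Pdgfa were Igfbp7, N-cadherin (Cdh2) and Efr3b (0.06, 0.06 and 0.08). Nearest to Rgs5 were the adenylate kinase Ak1, the Notch target Heyl and fibrillin 2 (Fbn2), with 0.04, 0.06 and 0.06. Nearest to Trpc6 were transgelin (Tagln), a smooth muscle protein, B3gnt8 and Slc7a8 (0.04, 0.05 and 0.06), and nearest to Cspg4 were Evpl, Elovl6 and Septin8 (0.02, 0.03 and 0.04). Pdgfd lay nearest to Fam13c, Qpct and Rb1 (0.10, 0.11 and 0.11). The profiles of Pdgfc and Pdgfrb were nearly flat, and their nearest genes (Zfp668, Zfp651 and Phf24, and 1700080O16Rik, Dnajc17 and 1110032A03Rik) differed from them by 0.03 to 0.04, where a flat profile would give 0.10 and 0.08. Since D34 moves most of these profiles, the likeness describes mainly that array.

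Other genes of the PDGF pathway were taken from a list of ligand proteases, co-receptors, adaptors, kinases and phosphatases. Of 36 genes 35 were in the fit, 21 below 0 and 14 above, with a median of -0.02 log2, and 0 passed by limma in either direction (0 higher and 1 lower at an unadjusted p under 0.05, where 2.08% and 4.22% of all genes were). The smallest unadjusted p among lower genes belonged to the receptor phosphatase Ptprj (-0.30), the scaffold Slc9a3r1 (-0.40) and the co-receptor Nrp1 (-0.13). Among higher genes they belonged to the PI 3-kinase subunit Pik3r1 (0.17), the adaptor Shc1 (0.17) and the receptor Lrp1 (0.22). Each of these 6 had a limma adjusted p of 0.736. Leaving out the library labelled Case D52, 0 of 35 passed and the median was -0.02, and without D34 0 passed and it was -0.01.

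A list of other pericyte and mural cell genes had 24 of 25 in the fit, with 17 below 0, 7 above 0 and a median of -0.13 log2. By limma 0 passed, and 0 higher and 5 lower had an unadjusted p under 0.05, where 2.08% and 4.22% of all genes did. The median was -0.14 on omitting D52 and -0.10 on omitting D34, with 0 passed in either case. At an unadjusted p under 0.05, 6 genes were lower and 1 higher on omitting D52, where 8.13% and 4.57% of all genes were. On omitting D34 these counts were 3 and 0, where 3.14% and 1.43% of all genes were. The smallest p among lower genes belonged to the transcription factor Ebf1 (-0.31), Heyl (-0.31) and the guanylate cyclase subunit Gucy1b1 (-0.18). Among higher genes they belonged to the Tie2 ligand Angpt1 (0.22), the stromal antigen Cd248 (0.28) and the lipid receptor S1pr3 (0.08). Limma adjusted p lay between 0.736 and 0.838 for these 6. Cd248 and Angpt1 were high in D34, at 1.08 and 0.56 log2 over the control mean, while Ebf1 and Heyl were low there, at -0.51 and -0.58. In D34, 3 of the 24 genes read above all controls, 13 below all controls and 8 within them. The share of all genes by this rule was not counted, so no excess over the whole array can be read from these counts. The pericyte marker list adds Notch3, Higd1b and Cox4i2 to 6 of the members. All 9 were in the fit, 7 lay below 0, and their summed intensity was 7414 to 8217 in controls and 7011 to 8118 in cases. The highest case was D34, where Kcnj8 and Abcc9 were high, and the other 3 cases, at 7011, 7261 and 7235, lay below the lowest control. Linear intensities were summed, so the 9 genes do not count evenly, and Pdgfrb, the brightest (difference -0.08 log2), weighs most. How often other sets of genes lie so was not counted.

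Markers of other cells were read beside these genes. Smooth muscle markers (11 of 11 in the fit) lay at a median of -0.38, -0.64, -0.08 and -0.10 log2 from the control mean in D04, D34, D48 and D52, and their summed intensity was 24447 to 25545 in controls and 18532 to 23649 in cases. D34 and D04 were also the lowest pups for Rgs5 and Trpc6. Of the smooth muscle markers, 6 were lower and 0 higher at a limma unadjusted p under 0.05, where 4.22% and 2.08% of all genes were. On omitting D34 these counts were 5 and 0, where 3.14% and 1.43% of all genes were, and 0 passed after adjustment in either case. Heart and skeletal muscle markers (13 of 15) lay at -0.66, -1.76, -0.45 and 0.30, with sums of 20943 to 28799 in controls and 6229 to 27600 in cases. Heart muscle is a known site of Abcc9. The D34 library had the highest Kcnj8 and Abcc9 and the lowest sum of heart and skeletal muscle markers. The part of heart tissue in these values was not tested.

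Platelet and megakaryocyte markers (8 of 8), whose cells carry PDGF, lay at -0.24, -0.60, -0.16 and -0.01, with sums of 3278 to 5128 in controls and 2306 to 3877 in cases. Alveolar fibroblast and myofibroblast markers (19 of 20) lay at -0.08, -0.28, -0.03 and -0.07, with sums of 69785 to 80724 and 63385 to 68764. At a limma unadjusted p under 0.05, 7 were lower and 1 higher, where 4.22% and 2.08% of all genes were. On omitting D34 these counts were 3 and 1, where 3.14% and 1.43% of all genes were. After adjustment 0 passed with all pups or without D34, and 2 on omitting D52, where 0.0467% of all genes did. In D34, which had the highest Pdgfra, 5 of these 19 genes read above all controls, 9 below all controls and 5 within them. Here too the share of all genes was not counted. Vascular endothelium markers (12 of 12) lay at -0.01, -0.23, -0.03 and -0.03, with sums of 32111 to 35331 and 28608 to 34861. Alveolar type 2 markers (9 of 10) lay at -0.03, 0.05, -0.11 and -0.25, with sums of 62947 to 68375 and 56121 to 66883. Among them Abca3, the 1 gene of 12856 that passed with all pups, differed by -0.98 log2 (limma adjusted p = 0.0108). It lay at -0.92, -0.82, -0.97 and -1.19 in D04, D34, D48 and D52. Macrophage markers (8 of 8) lay at -0.17, -0.04, -0.16 and 0.22, with sums of 3171 to 3695 and 3159 to 3972. No marker is listed at an intensity of 0, and the part of these cells in the results was not tested.

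**Figure D5:**
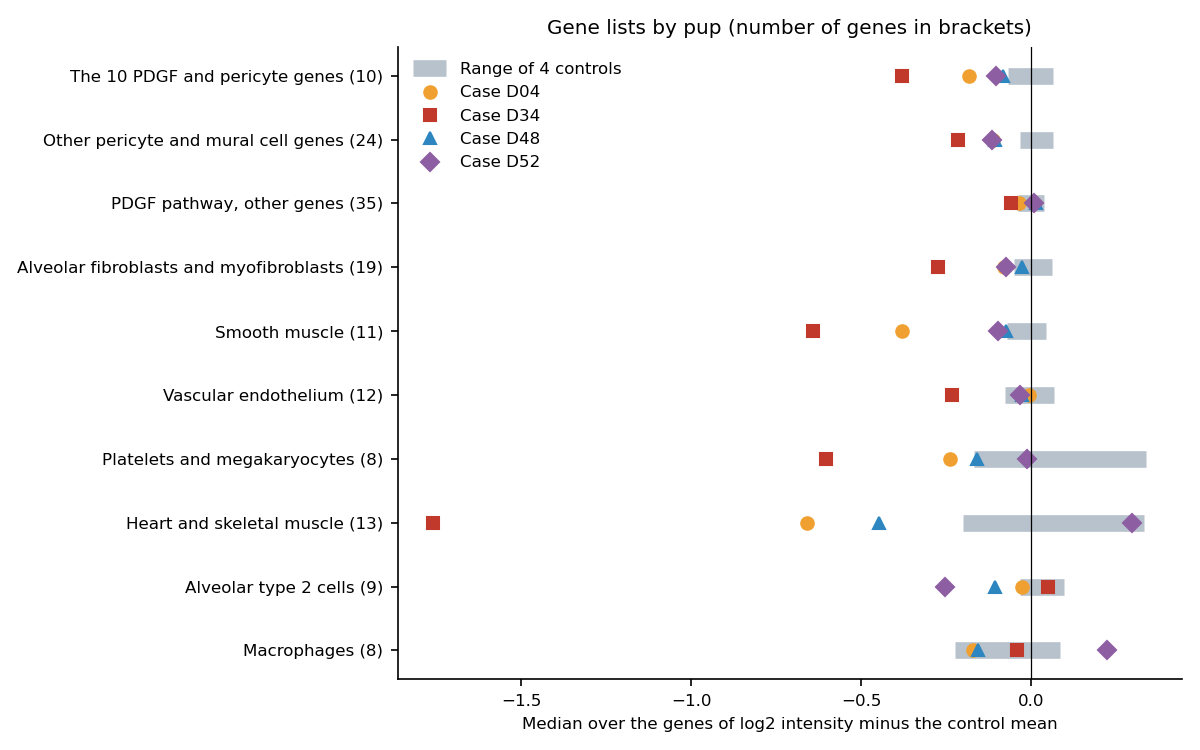
Median over each gene list of log2 intensity minus the control mean, by case pup, with the range of the 4 controls in grey and the number of genes in brackets. Case D34 is the lowest pup in 8 of the 10 lists drawn, from -0.06 for other PDGF pathway genes to -1.76 for heart and skeletal muscle genes. It lies at 0.05 for alveolar type 2 genes, where D52 is the lowest case (-0.25), and at -0.04 for macrophage genes, where D04 is (-0.17).

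Sex was not balanced between the groups, with 1 female control (D02) and 2 female cases (D04 and D34). With sex as a covariate Pdgfra differed by 0.42 log2, Pdgfa by -0.42, Rgs5 by -0.25, Kcnj8 by 0.16, Abcc9 by 0.26, Trpc6 by -0.28 and Cspg4 by -0.16, and 0 of the 10 genes passed (limma adjusted p from 0.915 to 0.923). Among male pups, 3 controls and 2 cases, which include the library labelled Case D52, the differences were 0.10 for Pdgfra, -0.33 for Pdgfa, -0.20 for Rgs5, -0.03 for Kcnj8, 0.06 for Abcc9, -0.07 for Trpc6 and -0.07 for Cspg4 (limma adjusted p = 0.999 for each). The female pups hold 1 control and 2 cases, with Pdgfra at 10.65 in D02 against 10.75 and 12.58 in D04 and D34, and Pdgfa at 9.90 against 9.76 and 8.88.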

How the data were processed

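Per the labels' protocols, lung RNA was biotin-labelled with an Affymetrix kit for array hybridisation. The deposited values are linear intensities, 1 per probe set. The submitters' processing notes name affy, and no source used here gives the background correction, normalization or summary. Both deposited tables hold the same values (largest difference 0). The authors' deposited log2 ratio column equals log2 of D04 over D02 within 1e-06 and was not used further.

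The log2 of each intensity was used, without rescaling. The 64 Affymetrix control probe sets and those below the 40th percentile of the mean (log2 6.51) were left out. The brightest probe set of each gene with 1 symbol was kept, giving 12856 genes; 22 of the 23 member probe sets passed. Groups came from the titles. Cases and controls were compared with limma 3.58.1 (R 4.3.3), p-values being adjusted by Benjamini-Hochberg, and a threshold of 0.05. Every probe set was also fitted without the filter, over 45037. Pups are separate animals, but their litters are not given, so no block was used. Names and promoters came from RefSeq, GRCm38.p6.

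The members and lists were chosen with earlier results of these data known. Named genes were the members, Pdgfb, Fgf18, neighbours in the genome, 3 genes per direction of each list by smallest p and 3 genes nearest in profile. The number of arrays limits the precision. Alternatives changed the filter, probe set choice, normalization, moderation, weights, sex, pairing, pseudocount and pups.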

Additional observations from a re-analysis of the deposited data

Results flagged for a closer look

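Within each group of 4 pups, the highest or lowest pup was set against the others by Dixon's ratio at each of the 23 probe sets. Of 46 groups looked at, 4 held such a pup, all of them case groups, where chance gives about 1 in 20 separate groups. These groups share the same arrays, and many share a gene, so they are not separate observations. The share over all probe sets was not counted, so no excess can be read from this count. Case D34 was the lowest for Pdgfa at 1418711_at (log2 8.88), the highest for Pdgfra at 1421916_at (11.03) and the highest for Abcc9 at 1435752_s_at (10.41). Case D48 was the lowest for Pdgfrb at 1417148_at (9.81).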

How the results depend on the processing

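None of the 10 genes passed the threshold under any alternative run, including all 24 ways of pairing pups as litters and array weights. The smallest limma adjusted p was 0.492 over the pairings, shared by Pdgfa, Pdgfd and Rgs5, and 0.0528 with array weights, for Trpc6. Over all alternatives 9 of the 10 genes kept their direction. The exception was Kcnj8, at -0.0034 log2 without case D34 and -0.026 among male pups only, a comparison added after seeing the data. The median over the 10 genes moved to -0.11 among male pups. Over the settings that leave out 1 pup, Pdgfra ranged from 0.10 to 0.85, Kcnj8 from -0.0034 to 0.44, Pdgfa from -0.61 to -0.29 and Rgs5 from -0.42 to -0.26. The number of genes past the threshold, 1 with all pups, was 0 with the mean of a gene's probe sets, 16 with array weights, 2 with sex as a covariate, 2 among male pups, 2 over every probe set with no filter, and 0 to 2 with a litter block. Leaving out 1 pup gave 0 to 6, with 0 without D02, D40, D58, D04 or D48 and 6 without the library labelled Case D52. The labels tie no pups to litters, so which pairing is right is not known here, and 4 arrays a group limit what can be called.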
